A study of Mus musculus with 8 samples.

Results

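A set of 10 genes of the blood vessel wall was followed in mouse lung, namely the angiopoietins Angpt1 and Angpt2, their receptor Tek (also called Tie2), the co-receptor Tie1, the phosphatase Ptprb, the junction genes Cdh5, Cldn5 and Esam, and the VEGF receptors Kdr and Flt1. They were chosen by symbol among the 24584 genes of the deposited tables, and all 10 were found once and passed the filter on low counts. The study asked what tangeretin, a plant flavone, does in the lung injury that follows lipopolysaccharide (LPS), a component of the outer membrane of gram-negative bacteria, and RNA was sequenced from the lungs of 4 mice of the LPS group and 4 that had tangeretin first (the LPS + Tan group). All 8 were male ICR mice of 6 to 8 weeks, labelled "widetype" for genotype, and received LPS from Escherichia coli O111:B4 into the peritoneum at 5 mg/kg, and in the LPS + Tan group 50 mg/kg of tangeretin was given by the same route 30 min earlier. Lungs were collected 12 h after the LPS injection. The set used here holds neither untreated mice nor mice given tangeretin alone, so every difference below is one between animals that had all received LPS, and a log2 fold change above 0 means a higher level in the LPS + Tan group.

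ANGPT1 binds the receptor kinase TEK on endothelial cells and keeps the vessel wall tight and quiescent. ANGPT2 is stored in endothelial cells, is released in inflammation and in that setting mostly blocks TEK, and TIE1, which binds neither ligand strongly, modifies the signal of TEK, while the phosphatase PTPRB (VE-PTP) removes phosphate from TEK and from the VE-cadherin complex. VE-cadherin (CDH5), claudin-5 (CLDN5) and ESAM hold neighbouring endothelial cells together, and VEGF loosens these contacts through KDR (VEGFR2), whereas FLT1 (VEGFR1) binds VEGF tightly, signals weakly and in its soluble form acts as a decoy.

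The counted reads of a library numbered 38895654 to 39931970, so depth hardly differed between the 8 libraries. As a check of the tissue label, 18 other endothelial genes were read, among them Pecam1, Erg and Emcn. This does not tell from which cells the reads of the members came. Their summed level was 5559 to 6710 CPM (counts scaled to the library total and by edgeR's TMM factors) in the LPS group and 6170 to 7304 in the LPS + Tan group. None of the 18 was at 0 in all 8 lungs together. The same held for all 24584 genes, so that count could not serve as a check. In whole lung, fewer cells of a type and less RNA per cell cannot be told apart.

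The promoters of the receptors are shown because Tek and Tie1 varied together from lung to lung while Kdr and Flt1 did not, as described further down. Windows were held for 5 of the 10 members (Tek, Tie1, Kdr, Flt1 and Cldn5), and the 250 bases before the RefSeq start of 4 of them (GRCm38.p6) are printed 5′ to 3′ on the strand of the gene. These are chr4:94739039-94739288 (+) for Tek, chr4:118489850-118490099 (-) for Tie1, chr5:75978456-75978705 (-) for Kdr and chr5:147726012-147726261 (-) for Flt1. Capitals mark GGAA, the core bound by ETS factors, read on either strand (TTCC on the printed one), and in Tek also ATTGTT, which is the SOX motif AACAAT read on the other strand and overlaps a TTCC.
Tek: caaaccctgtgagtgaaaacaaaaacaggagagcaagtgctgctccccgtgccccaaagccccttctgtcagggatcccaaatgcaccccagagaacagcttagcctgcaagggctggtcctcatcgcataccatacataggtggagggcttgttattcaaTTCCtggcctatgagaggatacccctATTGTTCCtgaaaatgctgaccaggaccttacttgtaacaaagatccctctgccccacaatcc
Tie1: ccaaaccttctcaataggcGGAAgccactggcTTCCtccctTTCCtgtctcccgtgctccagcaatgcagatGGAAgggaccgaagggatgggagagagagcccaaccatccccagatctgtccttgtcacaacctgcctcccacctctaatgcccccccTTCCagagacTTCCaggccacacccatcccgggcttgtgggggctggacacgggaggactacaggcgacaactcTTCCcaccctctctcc
Kdr: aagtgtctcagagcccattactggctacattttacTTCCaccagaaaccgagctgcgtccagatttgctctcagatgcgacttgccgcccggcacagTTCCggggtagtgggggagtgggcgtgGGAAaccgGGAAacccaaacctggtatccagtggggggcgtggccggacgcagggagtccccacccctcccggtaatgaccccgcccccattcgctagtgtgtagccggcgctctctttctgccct
Flt1: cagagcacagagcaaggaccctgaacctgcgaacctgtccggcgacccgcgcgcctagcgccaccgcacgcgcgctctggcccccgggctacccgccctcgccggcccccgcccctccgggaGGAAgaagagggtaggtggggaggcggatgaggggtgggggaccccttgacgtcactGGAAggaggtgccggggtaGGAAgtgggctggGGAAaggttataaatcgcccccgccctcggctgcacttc

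The Tie1 window held 7 GGAA cores, the Kdr and Flt1 windows 4 each, the Tek window 2 and the Cldn5 window 0. In the GENCODE coordinates given below, Tie1 starts at 118490061 on the minus strand. Most of its window, taken from the RefSeq start, therefore lies inside the gene as GENCODE draws it. The core is too short to set these promoters apart, since 93.4% of all 32851 windows of the same length hold it on one strand or the other, and it was added after the windows had been searched for longer motifs. Of those, AACAAT, which 9.42% of all windows hold, was found in Tek alone among the 5 windows, at bases 63 to 58 before the start. The ETS motifs CCGGAAG (6.91% of all windows) and CAGGAAG (10.8%), the FOX-ETS motif AACAGGAA (2.25%), the FOXO motif GTAAACA (3.17%), the GATA motif AGATAA (9.99%) and the NF-kB motif GGANTTTCC (1.07%) were in none of the 5 windows on either strand. These are matches of letters in short windows and were not tested as binding sites.

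Levels of different genes were compared per length, as FPKM (reads scaled to gene length and to the reads counted in the sample). Junction genes stood at the top. Cldn5 was at 415 ± 57.7 FPKM (mean ± SD of all 8 lungs), Cdh5 at 311 ± 42.9 and Esam at 122 ± 8.65, and within each of the 8 lungs Cldn5 was above Cdh5 and Cdh5 above Esam. The receptor Tek followed at 67.3 ± 22.2 FPKM and was above Tie1, at 45.8 ± 9.49, in 8 of 8 lungs. Tie1, Ptprb (43.9 ± 9.56), Kdr (37.9 ± 8.90) and Angpt2 (34.6 ± 12.3) lay within their spread of each other, and neighbours in this order changed places between lungs. Kdr had the higher mean but was above Angpt2 in 2 of 8 lungs, and the medians were 36.3 and 39.7 FPKM. By group, Kdr was at 32.5 FPKM (LPS) and 43.3 (LPS + Tan) and Angpt2 at 40.4 and 28.7. Angpt2 was above Flt1 in 6 of 8 lungs. Flt1 was at 20.6 ± 2.34 FPKM and Angpt1, the agonist, was the lowest at 14.4 ± 4.87, with Flt1 above it in 7 of 8 lungs. The levels are sums over all transcripts of a gene, so the soluble and the membrane form of Flt1 are not told apart.

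**Figure D1:**
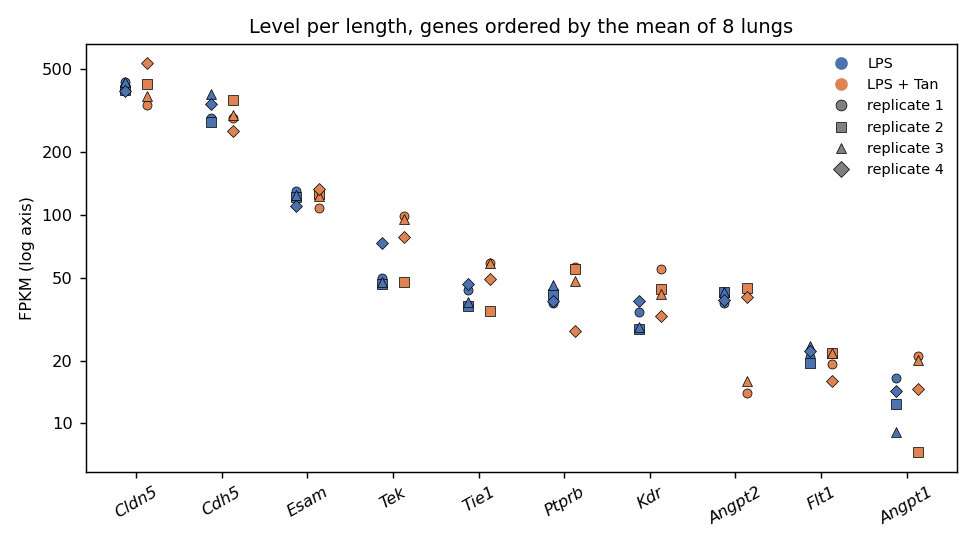
Level of each member per length, in FPKM on a log axis, with the genes ordered by the mean of the 8 lungs. Each symbol is 1 lung, blue for LPS and orange for LPS + Tan, and the shape gives the replicate number. Cldn5 and Cdh5 lie above 252 FPKM in every lung, and 2 LPS + Tan lungs have Angpt2 at 13.9 and 16.0 FPKM while the other 6 lie at 37.7 or above.

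No member passed the test between the groups. edgeR's quasi-likelihood test over 15706 genes called 0 of the 10 at an adjusted p below 0.05, and 0% of all genes were called. At an unadjusted p below 0.05, 2 of 10 members, Tek and Kdr, were higher in the LPS + Tan group, where 2.87% of all genes were, and 0 of 10 were lower, where 2.25% of all genes were. The count of 2 became 0 without LPS replicate 1, 2 or 3 or without LPS + Tan replicate 1, and 1 without LPS + Tan replicate 3. In those 5 fits 1.69% to 3.10% of all genes were higher. Without LPS + Tan replicate 2 the members past it were Angpt1, Tek and Tie1 (higher) and Angpt2 (lower). In that fit 5.15% of all genes were higher and 5.06% lower. Without LPS + Tan replicate 4 they were Ptprb and Kdr (higher), where 4.78% of all genes were higher and 4.56% lower. At the thresholds of the methods for differentially expressed genes, which ask for an unadjusted p below 0.05 with a log2 fold change beyond 1 in either direction, 0 members were called, against 0.649% of all genes. In 0 of the 10 did the CPM of the groups not overlap, against 2.73% of all genes. The fold changes of 5 members were above 0 and of 5 below 0, with a median log2 fold change of 0.06 beside 0.01 over all tested genes.

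**Figure D2:**
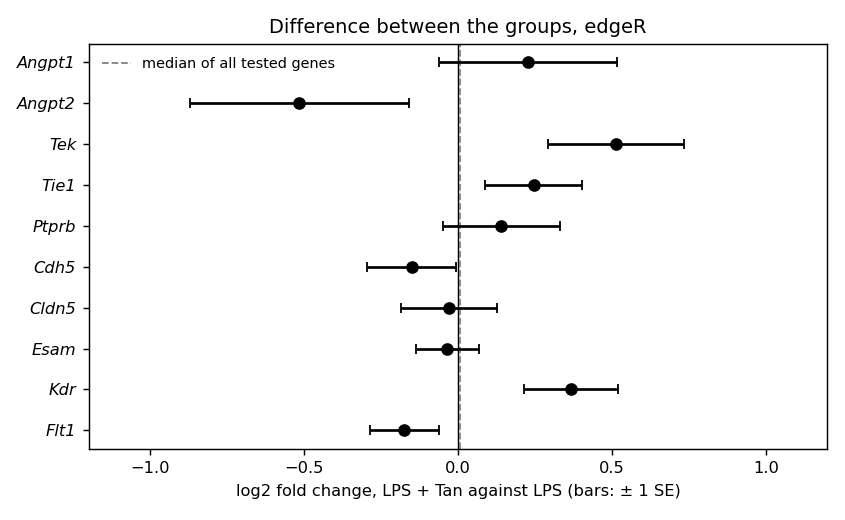
Log2 fold change of each member, LPS + Tan against LPS, by edgeR, with bars of 1 SE (4 lungs a group). The solid line is no difference and the dashed line the median of all tested genes, and the values run from -0.52 for Angpt2 to 0.51 for Tek.

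Angpt1 (chr15:42424723-42676977, minus strand, GRCm38), the agonist ligand made mainly by pericytes and other perivascular cells, was at 76.0, 55.4, 42.8 and 65.2 CPM in LPS replicates 1 to 4 and at 92.4, 32.7, 86.8 and 68.5 CPM in LPS + Tan replicates 1 to 4. The LPS + Tan group held both the lowest lung and the 2 highest, and the LPS group lay inside its range. The means were 59.8 ± 14.2 and 70.1 ± 26.9 CPM (SD, n = 4 and 4), with a log2 fold change of 0.23 (SE 0.29, adjusted p = 0.973). It was 0.06 without LPS + Tan replicate 1, 0.10 without LPS + Tan replicate 3 or LPS replicate 3, 0.36 without LPS replicate 1 and 0.46 without LPS + Tan replicate 2. The summed level of 10 pericyte markers was 463 to 543 CPM in the LPS group and 495 to 619 in the LPS + Tan group. Their median log2 fold change was 0.32. At an unadjusted p below 0.05, 3 of 10 were higher and 0 lower, where 2.87% of all genes were higher and 2.25% lower. At an adjusted p below 0.05, 0 were called, and the part of these markers in the Angpt1 level was not tested.

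Angpt2 (chr8:18690263-18741562, minus strand), the ligand released by activated endothelium, showed the most uneven pattern of the set. Its level was 136, 150, 158 and 140 CPM in the 4 LPS lungs and 48.2, 158, 53.9 and 148 CPM in the LPS + Tan lungs. LPS + Tan replicates 1 and 3 thus stood far below the other 6 lungs, while replicates 2 and 4 lay within or at the edge of the LPS range. The group means were 146 ± 9.90 and 102 ± 59.2 CPM, a coefficient of variation of 6.78% against 57.9%, and the log2 fold change was -0.52 (SE 0.36, adjusted p = 0.932). It was -0.28 without LPS + Tan replicate 1, -0.31 without replicate 3 and -0.81 without replicate 2 of that group, and only without replicate 2 did it pass an unadjusted p of 0.05.

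The 2 lungs with low Angpt2 also differed in other members. LPS + Tan replicates 1 and 3 had the highest Angpt1, Tek and Tie1 and the lowest Cldn5 of all 8 lungs. Of the 13 lists of cell types, 5 had sums that set these 2 lungs at one end. These 5 were picked after their values were seen, and the other lists did not separate the 2 lungs. The fibroblast sums, for example, were 2425 and 2497 CPM there, within the 2176 to 2959 of all lungs. The summed level of 5 lymphatic endothelial genes was 1315 and 1442 CPM there and 1881 to 3400 in the other 6 lungs, that of 7 platelet genes was 20.2 and 24.5 CPM against 31.6 to 38.6, and that of 6 cardiac muscle genes was 198 and 268 CPM against 131 to 186. The sum of 5 genes of general capillaries was 3034 and 2622 CPM against 1445 to 2295 in the other 6 lungs, and that of 10 pericyte genes 619 and 581 CPM against 463 to 565. No gene of these 5 lists was at 0 in all 8 lungs together, which held for all 24584 genes. The TMM factors of LPS + Tan replicates 1 and 3, 1.03 and 1.05, were the highest of the 8. The part of these differences in the levels of Angpt2, Angpt1, Tek and Tie1 was not tested.

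Tek (chr4:94739289-94874976, plus strand), the receptor of both ligands, was at 249, 226, 246 and 364 CPM in the LPS lungs and at 472, 234, 445 and 398 CPM in the LPS + Tan lungs. LPS + Tan replicates 1, 3 and 4 were above every LPS lung, and the groups overlapped through LPS + Tan replicate 2. The means were 271 ± 62.7 and 387 ± 107 CPM, 1.43-fold apart, with a log2 fold change of 0.51 (SE 0.22, adjusted p = 0.924). Over 20 alternatives the log2 fold change was 0.34 to 0.69 and the adjusted p at least 0.254.

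Tie1 (chr4:118471191-118490061, minus strand), the co-receptor, was at 172, 140, 154 and 182 CPM in the LPS lungs and at 221, 134, 217 and 197 CPM in the LPS + Tan lungs. The order of the lungs resembled that of Tek, with LPS + Tan replicates 1, 3 and 4 above the LPS group and replicate 2 the lowest of all 8. The means were 162 ± 18.6 and 192 ± 40.4 CPM (log2 fold change 0.25, SE 0.16, adjusted p = 0.928), and the log2 fold change was 0.17 without LPS + Tan replicate 1, 0.38 without LPS + Tan replicate 2 and 0.07 with scaling to the 18 endothelial genes.

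Ptprb (chr10:116275523-116389535, plus strand), the phosphatase that acts on TEK and on VE-cadherin, was at 502, 543, 631 and 508 CPM in the LPS lungs and at 718, 716, 601 and 373 CPM in the LPS + Tan lungs. Here LPS + Tan replicates 1 and 2 were the highest and replicate 4 the lowest of all 8. The means were 546 ± 59.8 and 602 ± 162 CPM (log2 fold change 0.14, SE 0.19, adjusted p = 0.978). The log2 fold change was 0.04 without LPS + Tan replicate 1, 0.05 without replicate 2 and 0.31 without replicate 4 of that group, and 0.22 without LPS replicate 3.

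None of the 3 junction genes passed the test. Cdh5 (chr8:104101625-104144511, plus strand), which encodes VE-cadherin of the adherens junction, was at 1191, 1122, 1601 and 1382 CPM in the LPS lungs and at 1136, 1429, 1155 and 1050 CPM in the LPS + Tan lungs, with a log2 fold change of -0.15 (SE 0.14, adjusted p = 0.961) that was -0.05 without LPS replicate 3, -0.09 without LPS + Tan replicate 4, -0.23 without LPS replicate 2 and -0.25 without LPS + Tan replicate 2. Cldn5 (chr16:18776847-18778262, plus strand), which encodes claudin-5 of the tight junction, was at 622, 557, 643 and 561 CPM and at 465, 596, 498 and 777 CPM, with a log2 fold change of -0.03 (SE 0.16, adjusted p = 0.997). The 4 LPS lungs lay close together in Cldn5, at 596 ± 43.4 CPM, whereas the LPS + Tan lungs, at 584 ± 140 CPM, held both the lowest and the highest of the 8. Esam (chr9:37528078-37538319, plus strand), an adhesion molecule of the same contacts, was at 246, 224, 240 and 207 CPM and at 195, 232, 216 and 253 CPM, with a log2 fold change of -0.03 (SE 0.10, adjusted p = 0.988). The sign of the Cldn5 and Esam values turned with the scaling, to 0.01 for both when counts were scaled to sample totals. When counts were scaled to the summed counts of the 18 endothelial genes, Cdh5 was at -0.31, Cldn5 at -0.20 and Esam at -0.21, and none was past an unadjusted p of 0.05.

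Kdr (chr5:75932827-75978458, minus strand), the main signalling receptor of VEGF, was at 271, 222, 237 and 305 CPM in the LPS lungs and at 418, 345, 309 and 263 CPM in the LPS + Tan lungs. LPS + Tan replicates 1, 2 and 3 were above all LPS lungs and replicate 4 lay inside the LPS range. The means were 259 ± 37.4 and 334 ± 65.3 CPM, 1.29-fold apart, with a log2 fold change of 0.37 (SE 0.15, adjusted p = 0.924). Without LPS + Tan replicate 1 it was 0.24. Over 20 alternatives the log2 fold change was 0.21 to 0.47 and the adjusted p at least 0.354.

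Flt1 (chr5:147561604-147726011, minus strand), the receptor that serves mostly as a trap for VEGF, was at 293, 269, 340 and 314 CPM in the LPS lungs and at 260, 303, 286 and 229 CPM in the LPS + Tan lungs. It was lower in the mean where Kdr was higher, at 304 ± 30.2 and 269 ± 32.3 CPM, but the groups overlapped (log2 fold change -0.17, SE 0.11, adjusted p = 0.930). The log2 fold change was -0.12 without LPS replicate 3 and -0.10 without LPS + Tan replicate 4. It was -0.23 without LPS replicate 2, -0.24 without LPS + Tan replicate 2 and -0.33 with scaling to the 18 endothelial genes.

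**Figure D3:**
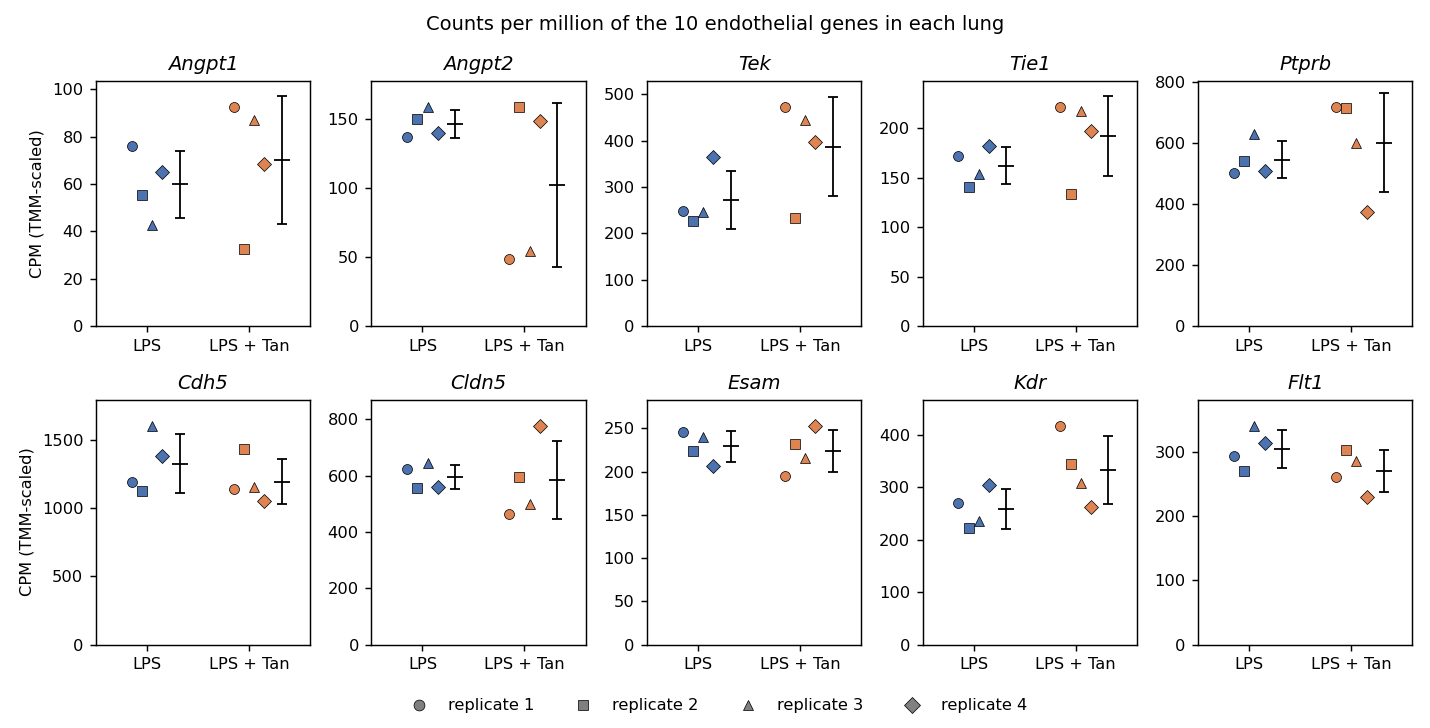
CPM (scaled by TMM factors) of the 10 members in each of the 4 LPS (blue) and 4 LPS + Tan (orange) lungs, with the mean and SD of each group in black and axes that start at 0. The groups overlap in every panel, and Angpt2 is split within the LPS + Tan group, at 48.2 and 53.9 CPM in 2 lungs and 148 and 158 CPM in the other 2.

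Because several of these genes work as partners or opponents, 4 ratios within a lung were compared between the groups with an exact permutation test (two-sided, 70 ways to arrange the samples), whose smallest p is 0.0286. Scaling of the library cancels in them. The ratio of Flt1 to Kdr was 0.609, 0.684, 0.809 and 0.578 per length in the LPS lungs and 0.351, 0.494, 0.521 and 0.490 in the LPS + Tan lungs. It was lower in 4 of 4 LPS + Tan lungs than in any LPS lung, and its mean log2 value over counts was 0.24 ± 0.21 in the LPS group and -0.30 ± 0.26 in the LPS + Tan group (exact permutation p = 0.0286, 0.114 adjusted over the 4 ratios). The difference of -0.54 was -0.41 without LPS + Tan replicate 1, the lowest lung, with an exact permutation p of 0.0571.

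The ratio of Tie1 to Tek was 0.873, 0.785, 0.794 and 0.634 in the LPS lungs and 0.593, 0.723, 0.618 and 0.627 in the LPS + Tan lungs, a mean log2 difference of -0.26 (exact permutation p = 0.0571, adjusted 0.114). The groups overlapped, with LPS replicate 4 within the range of the LPS + Tan lungs. The ratio of Angpt2, the antagonist, to Angpt1 was 2.28, 3.44, 4.70 and 2.73 in the LPS lungs and 0.664, 6.16, 0.790 and 2.75 in the LPS + Tan lungs, a mean log2 difference of -0.88 (exact permutation p = 0.371, adjusted 0.495). It was -0.42 without LPS + Tan replicate 1, -0.50 without replicate 3 and -1.49 without replicate 2 of that group, with exact permutation p of 0.743, 0.743 and 0.0857. Angpt1 thus exceeded Angpt2 per length in 2 lungs, both of the LPS + Tan group, and replicate 2 of that group had the highest ratio of all 8. The ratio of Cldn5 to Cdh5 was 1.49, 1.41, 1.14 and 1.16 in the LPS lungs and 1.17, 1.19, 1.23 and 2.11 in the LPS + Tan lungs, a mean log2 difference of 0.09 (exact permutation p = 0.743), which was -0.11 without LPS + Tan replicate 4.

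**Figure D4:**
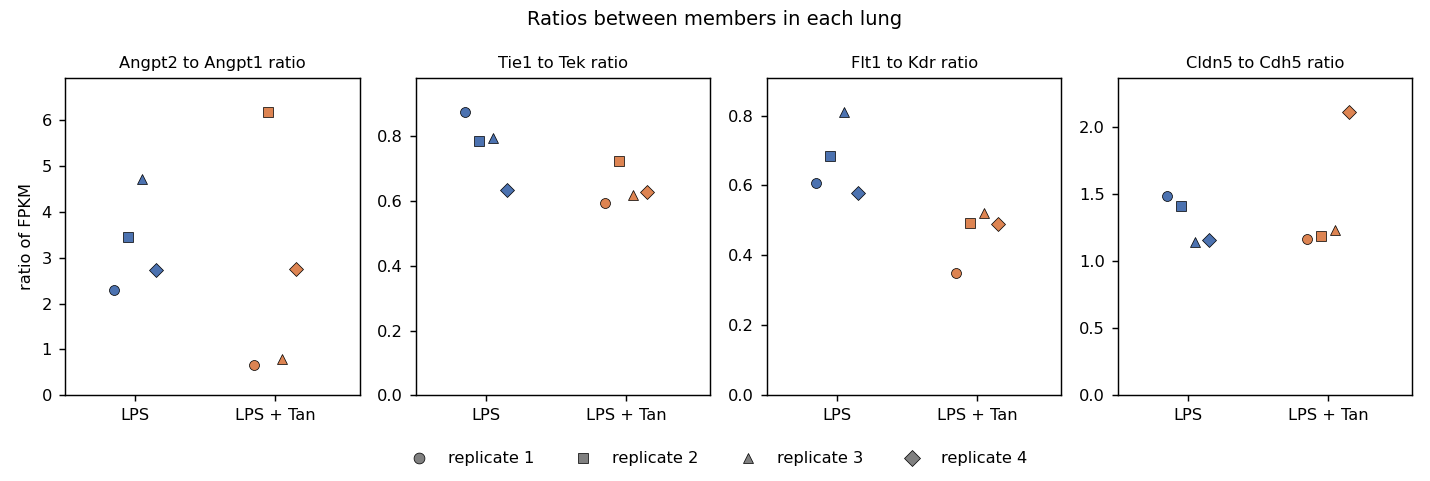
Ratios of FPKM between members within each of the 4 LPS (blue) and 4 LPS + Tan (orange) lungs, with the shape giving the replicate number and axes that start at 0. The ratio of Flt1 to Kdr is 0.578 to 0.809 in the LPS lungs and 0.351 to 0.521 in the LPS + Tan lungs, and in the other 3 panels the groups overlap.

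Some pairs of members also varied together from lung to lung. Over the 8 lungs, correlations of log2(CPM + 0.5) were computed for all 45 pairs, of which 17 were above 0 and 28 below 0, and p was taken from all 40320 pairings and adjusted over the 45. The receptor pair Tek and Tie1 had a Pearson r of 0.946 (exact permutation p = 0.000298, adjusted 0.0134) and a Spearman rho of 0.976 (exact permutation p = 0.000397, adjusted 0.00893). Its r was 0.881 without the 2 lungs farthest from the median of Tek, and that of the deviations from the group means was 0.947. Tie1 also went with the ligand Angpt1, with r of 0.886 (exact permutation p = 0.00340, adjusted 0.0382), rho of 0.905 (exact permutation p = 0.00456, adjusted 0.0411), r of 0.876 without the 2 farthest lungs and 0.919 for the deviations. Within the groups, r of this pair was 0.607 in the LPS lungs and 0.998 in the LPS + Tan lungs.

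The junction genes fell into separate pairs. Cdh5 varied with the VEGF receptor Flt1, with r of 0.906 (exact permutation p = 0.00174, adjusted 0.0372), rho of 0.952 (exact permutation p = 0.00114, adjusted 0.0171), r of 0.890 without the 2 farthest lungs and 0.902 for the deviations. Cldn5 varied with Esam, with r of 0.895 (exact permutation p = 0.00248, adjusted 0.0372), rho of 0.905 (exact permutation p = 0.00456, adjusted 0.0411), r of 0.783 without the 2 farthest lungs and 0.893 for the deviations. Kdr and Flt1 showed no such relation, with r of -0.105 (exact permutation p = 0.807) and rho of -0.07 (exact permutation p = 0.882), while r of their deviations from the group means was 0.370. Scaling to sample totals turned the sign of 5 of the 45 correlations, and r of these 4 pairs was then 0.799 to 0.955. Angpt2 split the lungs into separate groups, so that no r over all 8 is given for its pairs. By rank, Angpt2 ran opposite to Angpt1 over the 8 lungs (rho -0.976, exact permutation p = 0.000397, adjusted 0.00893 over the 45 pairs). Within the 6 lungs that lie together, r with Angpt1 was -0.879 (exact permutation p = 0.0292, adjusted 0.262 over 9 pairs) and rho -0.943 (exact permutation p = 0.0167, adjusted 0.15).

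**Figure D5:**
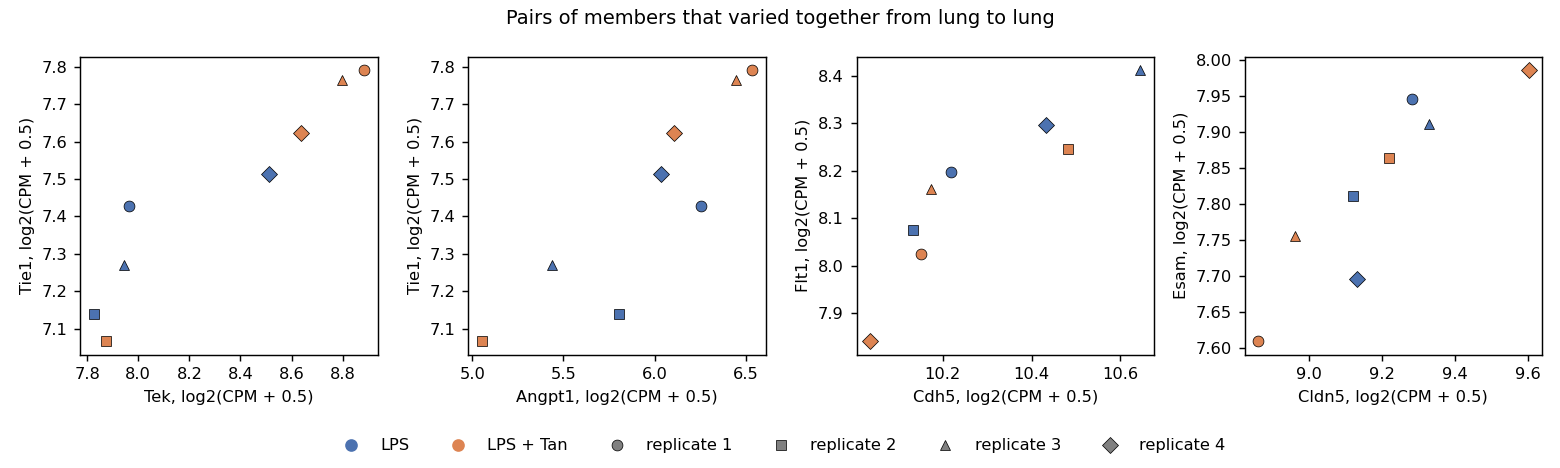
Log2(CPM + 0.5) of 4 pairs of members in the 8 lungs, 1 symbol per lung, blue for LPS and orange for LPS + Tan. The lungs lie along a rising line in each panel, with r of 0.946 for Tek and Tie1, 0.886 for Angpt1 and Tie1, 0.906 for Cdh5 and Flt1 and 0.895 for Cldn5 and Esam.

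Genes outside the set whose pattern over the 8 lungs was most like a member are given as a description. For Angpt1 the 5 with the highest r were Hoxa5, Cap2, Fam171a1, Armcx2 and Sspn, at 0.960 to 0.986, and at 0.874 to 0.951 without the 2 lungs farthest from the median. For Angpt2 they were Socs2 and Dusp1, feedback inhibitors of cytokine and MAP kinase signalling, Rasip1, which endothelial cells need to form vessels, Rbm34, and Acod1, which makes itaconate in macrophages. Their r of 0.975 to 0.988 rested on LPS + Tan replicates 1 and 3 and was 0.491 to 0.767 without them. Dusp1 was at 205 and 225 CPM in those lungs and at 419 to 536 in the other 6, and Rasip1 at 131 and 160 CPM against 223 to 244. For the mean of all 10 members they were Adat2, Lpar2, Adam15, Smyd2 and Pygl, with r of 0.920 to 0.952 that was 0.006 to 0.751 without LPS replicates 2 and 3.

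Other genes of the same pathways were read from 6 lists, and in none did a gene pass at an adjusted p below 0.05. Over all genes, 2.87% were higher and 2.25% lower at an unadjusted p below 0.05, and in 2.73% the groups did not overlap. Of 17 genes of angiopoietin-TIE signalling, 0 were higher and 0 lower at an unadjusted p below 0.05, and the median log2 fold change was -0.02. The most abundant of them, the integrin subunit Itgb1, was at 1379 ± 120 and 1410 ± 94.9 CPM, and Ptpn11, the phosphatase SHP2 that binds activated TEK, at 269 ± 21.8 and 259 ± 34.4 CPM. Of 17 genes of VEGF signalling, 1 was higher and 0 lower, with a median of 0.02. This was Nrp1, a co-receptor of KDR, at 196, 184, 135 and 173 CPM in the LPS lungs and at 358, 159, 277 and 217 CPM in the LPS + Tan lungs (log2 fold change 0.55, SE 0.22, adjusted p = 0.924), and the groups overlapped. Without LPS + Tan replicate 1 its log2 fold change was 0.33. It was not past that threshold in 7 of 20 alternatives, among them those without LPS replicate 3 or 4 or without LPS + Tan replicate 1 or 3.

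Of 18 endothelial identity genes, 2 were higher and 0 lower at an unadjusted p below 0.05, with a median log2 fold change of 0.18. Both are receptors of the BMP and TGF-beta family, Eng, at 491 ± 48.9 and 600.0 ± 61.0 CPM (log2 fold change 0.29, SE 0.11, adjusted p = 0.924), and Acvrl1, at 441 ± 53.0 and 536 ± 34.8 CPM (log2 fold change 0.28, SE 0.11, adjusted p = 0.924), and in both the groups did not overlap. Neither was past that threshold without LPS replicate 2, LPS replicate 3 or LPS + Tan replicate 1, nor was Acvrl1 without LPS + Tan replicate 2. When counts were scaled to the summed counts of these 18 genes, the median of all genes moved by -0.17. Neither Tek nor Kdr was then past an unadjusted p of 0.05. The log2 fold changes of Eng and Acvrl1 were 0.12 each and not past it either. Both are among the 18 and are partly divided by themselves, so this scaling does not test them. The log2 fold changes under this scaling were 0.05 for Angpt1, -0.67 for Angpt2, 0.34 for Tek, -0.03 for Ptprb and 0.21 for Kdr.

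Of 28 other junction genes, 2 were higher and 0 lower, with a median of 0.01, namely Jup (plakoglobin, which links cadherins to the cytoskeleton; 201 ± 25.3 and 264 ± 37.3 CPM) and Marveld2 (tricellulin, of tricellular tight junctions; 13.2 ± 0.711 and 15.4 ± 1.10 CPM). Marveld2 was not past it in 10 of 20 alternatives, among them the likelihood ratio test, the absence of a filter and each fit without LPS replicate 1, 2 or 4 or LPS + Tan replicate 2, 3 or 4. Jup was not past it in 1 of 20. Of 24 barrier regulators, 1 was higher and 0 lower, with a median of 0.01, which was Radil, a RAP1 effector, at 5.09 ± 0.459 and 6.53 ± 0.590 CPM. It was not past the threshold in 4 of 20 alternatives, among them those without LPS replicate 2 and without LPS + Tan replicate 2. Of the 24 endothelial transcription factors tested, of 25 listed, 5 were higher and 0 lower, against 2.87% and 2.25% of all genes, with a median of 0.07. The 4 with the lowest p were Sox18 (log2 fold change 0.95, SE 0.16, adjusted p = 0.497), Sox17 (1.38, SE 0.29, adjusted p = 0.688), Hey1 (1.23, SE 0.27, adjusted p = 0.836) and Sox7 (0.56, SE 0.16, adjusted p = 0.919), and in all 4 the groups did not overlap. Over all genes, the groups did not overlap in 2.73%. An unadjusted p below 0.05 was kept in all 20 alternatives for these 4 genes, which were listed with earlier results of these data known. Sox17 was at 59.7, 25.7, 37.2 and 25.1 CPM in LPS + Tan replicates 1 to 4. Sox17, Hey1 and Sox7 were highest in replicates 1 and 3, and Sox18 in replicates 1 and 4. Without LPS + Tan replicate 1 the log2 fold changes were 1.05 for Sox17, 0.88 for Hey1, 0.83 for Sox18 and 0.39 for Sox7. Sox18, Sox17 and Hey1 were called by DESeq2 (adjusted p = 0.000673, 0.00165 and 0.00540) and by edgeR's likelihood ratio test (adjusted p = 0.00106, 0.00734 and 0.0161).

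Markers of other cell types of the lung were set beside these values, and their part in them was not tested. Among capillary markers, 5 genes of general capillaries summed to 1445 to 2295 CPM in the LPS group and 1835 to 3034 in the LPS + Tan group (median log2 fold change 0.39), and 6 genes of aerocytes to 595 to 819 and 732 to 777 (0.17). Each of these 2 lists had 1 gene higher and 0 lower at an unadjusted p below 0.05, where 2.87% of all genes were higher and 2.25% lower. The erythroid list had 6 of 6 fold changes below 0 (median -0.51, sums of 1426 to 3451 and 1326 to 2171 CPM), the cardiac muscle list 6 of 6 above 0 (0.34), the lymphatic list 5 of 5 below 0 (-0.04) and the platelet list 6 of 7 below 0 (-0.24, with 1 gene lower at that threshold). The fibroblast list had a median of -0.14 with 1 gene lower, and the macrophage list one of 0.06 with 1 gene higher. Smooth muscle (0.07), alveolar type 1 (0.00) and type 2 (-0.05) and neutrophil (0.04) lists had 0 genes past it in either direction, and their sums overlapped between the groups. No gene of any of these lists was at 0 in a lung.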

How the data were processed

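RNA-seq was analysed in lungs of 4 LPS and 4 LPS + Tan mice. The authors deposited raw read counts per gene and FPKM values, computed from the same counts by gene length and sample total. The submitters' processing notes name GRCm38 and mm10, and no aligner or counter is given in the sources used here. TRIzol and the VAHTS V6 kit are named in the methods, whereas the labels name other kits. Samples were grouped by their labels, and 0 columns were left without a sample.

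Counts were tested with edgeR 4.0.16 (R 4.3.3) by filterByExpr, TMM scaling and the quasi-likelihood test, with Benjamini-Hochberg adjustment over 15706 genes. The p-values measure the spread between these samples. Ratios and correlations were computed with scipy 1.17.1. Scripts were checked on simulated data. None of the 12 pairs of libraries within the groups was a repeat, since the median squared deviation of their counts was 7.83 to 22.4 times sampling noise. Same-numbered samples did not vary together, so that no block was used. Gene coordinates are from GENCODE and promoter sequences from RefSeq.

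The members, the 6 lists of vascular genes and the 13 of cell types were chosen with earlier results of these data known. Named genes are the members, the 5 most like Angpt1, Angpt2 and the members' mean, and, of each vascular list, at most 4 with an unadjusted p below 0.05, or else the 2 most abundant. The 20 alternatives were DESeq2 1.42.0, the likelihood ratio test of edgeR, limma-voom (limma 3.58.1), 4 other scalings, 2 other filters, limma on log2(FPKM + 1) and log2(FPKM + 0.1), the replicate block and each of the 8 samples left out. The ETS core, and the reading of Angpt2 pairs in 6 lungs, were added after seeing the data.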

Additional observations from a re-analysis of the deposited data

Results flagged for a closer look

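In 28 groups of 4 lungs examined for a lung far from the others (10 members and 4 ratios in each of the groups), 2 were found, and chance gives about 1 in 20, which is 1.4 here. In the ratio of Flt1 to Kdr, LPS + Tan replicate 1 was the lowest, and its gap to the nearest lung was 0.844 of the range of the group. In the ratio of Cldn5 to Cdh5, LPS + Tan replicate 4 was the highest, with a gap of 0.911 of the range. The low Angpt2 of LPS + Tan replicates 1 and 3 was not found by this rule, since those 2 lungs lie together.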

How the results depend on the processing

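At an adjusted p below 0.05, and likewise at the thresholds of the methods, 0 members were called under all 20 alternatives, among them DESeq2, which called 35 genes in all, and the likelihood ratio test, which called 23. The count of members higher at an unadjusted p below 0.05 was 1 in place of 2 with limma-voom (2.67% of all genes higher) and with FPKM at a pseudocount of 1 (4.47%) or 0.1 (3.91%), 0 with scaling to the endothelial list (0.707%), and 0 to 3 with 1 lung left out. It was 0 without LPS replicate 1, 2 or 3 or LPS + Tan replicate 1, and 1 without LPS + Tan replicate 3, and it was 3 (Angpt1, Tek and Tie1) without LPS + Tan replicate 2. The count of lower members was 0 to 1, and 1 (Angpt2) without LPS + Tan replicate 2, a fit in which 820 genes in all were higher and 806 lower. With the replicate block, 1 member (Tek) and 2.53% of all genes were higher, Marveld2 and Radil were not past the threshold, and the Flt1 to Kdr difference of -0.54 had an exact permutation p of 0.125, the smallest that 4 pairs allow, and lay at -0.60 to -0.41 with 1 lung left out. Deviations of same-numbered lungs correlated at -0.165 to 0.164, those of others at -0.263 to 0.292. The sign turned for Cldn5 (0.0068) and Esam (0.0054) with sample totals, for Esam (0.0040 and 0.0040) on the FPKM scales and for Ptprb (-0.026) and Itgb1 (-0.14) with scaling to the endothelial list. With 1 lung left out, Cldn5 lay at -0.20 to 0.065, Esam at -0.098 to 0.025, Itgb1 at -0.016 to 0.084, Ptpn11 at -0.13 to 0.018 and the Cldn5 to Cdh5 difference at -0.11 to 0.17. The split of all genes higher and lower, 451 and 353, was 653 and 239 with sample totals, 702 and 266 on FPKM with a pseudocount of 1, 614 and 283 with 0.1 and 111 and 1230 with scaling to the endothelial list. The cause of these changes was not tested.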
